A study of Mus musculus and Homo sapiens with 4 samples.

Results

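A set of 10 skeletal muscle genes was followed in mouse embryonic fibroblasts (MEFs), the connective-tissue cells that grow out when a whole embryo is dispersed and cultured. The genes were found by symbol, in a list drawn up with earlier results of these data known: Myod1, Myog, Myf5, Des, Actc1, Acta1, Myl4, Myh3, Tnnt2 and Chrna1, 10 of the 23329 entries of the fibroblast libraries. The labels give C57BL/6 cells from E13.5 embryos at passages 2 to 3, with no treatment named, in serum-containing medium. The groups are wild type (WT) and NEAT1 knockout (NEAT1 KO), and each is 1 library of poly-A RNA. The number of embryos behind each culture, the sex of the embryos and the design of the deletion are not given in the sources used here. The other 2 of the 4 libraries of the series are human prostate cancer cells and were not used here.

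The skeletal muscle lineage is set by a family of DNA-binding factors. Myf5 and Myod1 commit precursors to the lineage, and Myog drives them to fuse and differentiate. Differentiated fibres then make desmin filaments, striated-muscle actins and myosins, troponin and the acetylcholine receptor of the neuromuscular junction. Several of these structural genes are not particular to skeletal muscle. Desmin is also made in heart and smooth muscle, and striated actins are also made in the heart. Myl4 is an atrial and fetal light chain, and Tnnt2 is the troponin T of the heart and of embryonic muscle. An embryo of this age holds limb and trunk muscle precursors, heart, vessels and connective tissue, any of which could enter the culture.

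Values were RPKM, a read count scaled to both transcript length and sequencing depth. With 1 library per group there was no spread between replicates and no test of the difference between the groups was possible, so every ratio below describes these 2 libraries. Ratios were computed as log2 of the KO value plus 1 over the WT value plus 1, which understates the difference of genes with low values. The number of reads per library is not given in the sources used here. However, low RPKM values multiplied by the length of the transcript recurred at fixed steps. Among entries whose span matched a single transcript, 231 low WT entries lay within 2% of 1 step and 121 lay at 0.5 steps, whereas 2 lay at 0.75 steps. A step was 0.0319 RPKM in WT and 0.0337 RPKM in KO for a transcript of 1 kilobase, and less for a longer one in proportion. A step is probably what 1 read or read pair was worth, which the files do not settle, and the levels below are given in RPKM and in these steps. Intervals computed from steps rest on that reading and cover counting error only.

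Neat1, the deleted gene (chromosome 19, 5842302 to 5845478), had 29.5 RPKM in WT and 2.01 RPKM in KO, in the direction of the labels. In WT 11233 entries reached 1 RPKM and 6858 were listed at 0, against 11118 and 6997 in KO, and the 10888 entries that reached 1 RPKM in both libraries had a median log2 ratio of -0.06. A list of 11 housekeeping genes had log2 ratios from -0.22 to 0.19 with a median of 0.01, which other scalings moved to between -0.09 and 0.07.

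The regulators that define the lineage were at or near 0 in both libraries. Myod1 (chromosome 7, 46376474 to 46379092 in mm10) had 0.0139 RPKM in WT, 0.807 steps, and was listed at 0 in KO. Myog (chromosome 1, 134290004 to 134292548) had 0.0216 RPKM in WT, 1.00 step, and was listed at 0 in KO. Myf5 (chromosome 10, 107482908 to 107486134) was listed at 0 in both. A value of 0 allows up to 3 steps, which for Myf5 is 0.0459 RPKM in WT and 0.0486 RPKM in KO. For Myod1 this limit was 0.0546 RPKM in KO and for Myog 0.0684 RPKM, both above the WT value, so no difference between the libraries was detectable at this depth in any of these regulators. Other factors of the lineage gave the same picture. Pax3 and Pax7, which mark muscle precursors, were listed at 0 in WT and had 0.00874 and 0.00791 RPKM in KO, 1.00 step each, and Myf6 was listed at 0 in both. The libraries therefore did not show the defining factors of skeletal muscle cells above the level that a few reads would give.

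**Figure D1:**
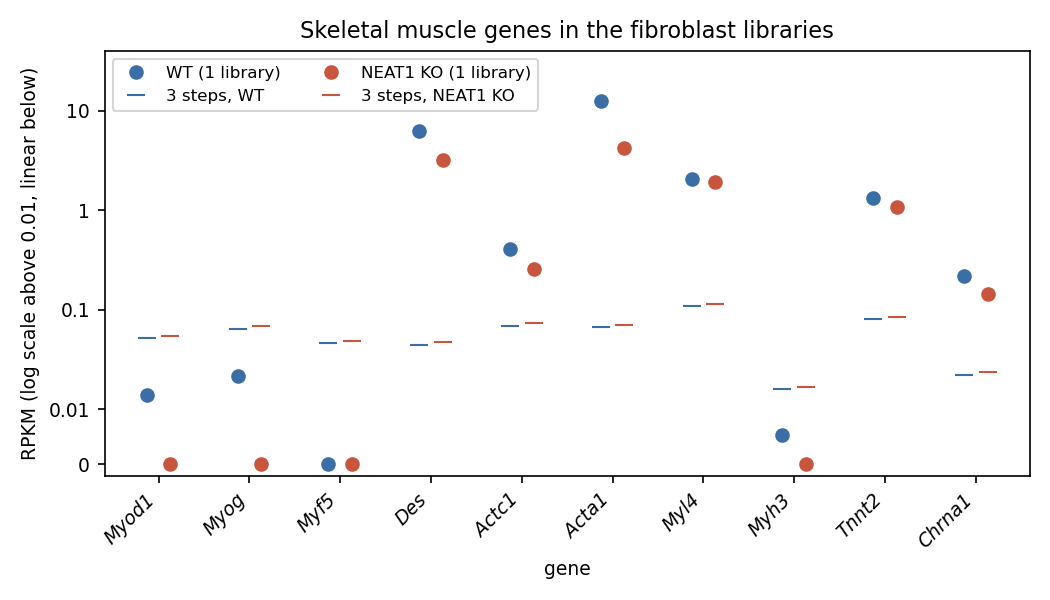
RPKM of each gene in the WT library (blue) and the NEAT1 KO library (red), 1 library each, on an axis that is logarithmic above 0.01 and linear below; short lines mark 3 steps, the limit that a value of 0 allows. Myod1, Myog, Myf5 and Myh3 lie below this limit in both libraries, and Acta1 and Des are the highest.

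The structural genes spread over several orders of magnitude. In WT the order was Acta1, Des, Myl4, Tnnt2, Actc1, Chrna1, Myog, Myod1, Myh3 and Myf5, and in KO the first 6 stood in the same order. By the mean of both libraries Acta1 ranked 6175 and Des 7976 of the 23329 entries. Of the 10 genes, 4 reached 1 RPKM, 5 were above 0 and below 1 RPKM, and 1 was listed at 0 in both libraries.

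Acta1, the actin of adult skeletal muscle (chromosome 8, 123891767 to 123894736), had 12.6 RPKM in WT and 4.26 RPKM in KO, 564 and 181 steps. Its log2 ratio was -1.37, rank 18 from the lowest of all entries. The plain ratio of KO to WT was 0.339, with a 95% counting interval from 0.286 to 0.402. Des, the intermediate filament of muscle (chromosome 1, 75360344 to 75367715), had 6.28 RPKM in WT and 3.20 RPKM in KO, 424 and 204 steps, a log2 ratio of -0.79. Its plain ratio was 0.51, with a counting interval from 0.429 to 0.604. For these 2 genes the KO value was lower by more than counting error. Such an interval below 1 was common, at 30.6% of the 15327 entries above 0 in both libraries with a known length, and 17.2% had an interval above 1. Whether either gene was lower by more than the difference between any 2 cultures cannot be told from 1 library per group. In bulk samples fewer cells of a type and less RNA per cell cannot be told apart.

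Actc1, the actin of the heart and of embryonic skeletal muscle (chromosome 2, 114047289 to 114052811), had 0.412 RPKM in WT and 0.255 RPKM in KO, 18.0 and 10.5 steps, a log2 ratio of -0.17. The counting interval of its plain ratio ran from 0.243 to 1.34 and included 1. Chrna1, the alpha subunit of the muscle acetylcholine receptor (chromosome 2, 73563281 to 73580306), had 0.217 RPKM in WT and 0.144 RPKM in KO, 29.2 and 18.3 steps, and its interval ran from 0.344 to 1.22. Tnnt2 (chromosome 1, 135836386 to 135852261), counted over 10 RefSeq transcripts, had 1.32 RPKM in WT and 1.08 RPKM in KO, with an interval from 0.523 to 1.28. Myl4 (chromosome 11, 104550663 to 104587219) had 2.06 RPKM in WT and 1.90 RPKM in KO, with an interval from 0.622 to 1.38. For these 4 genes a difference between the libraries was not detectable at this depth. Myh3, the embryonic myosin heavy chain (chromosome 11, 67078300 to 67102291), had 0.0053 RPKM in WT, 1.00 step, and was listed at 0 in KO, where 3 steps would be 0.0168 RPKM.

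**Figure D2:**
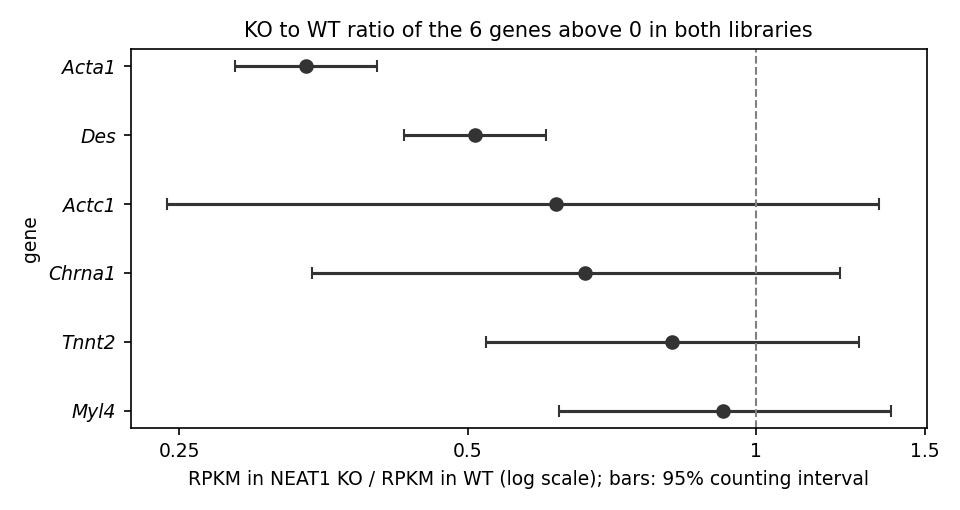
Plain ratio of the KO to the WT RPKM (log axis) for the 6 genes above 0 in both libraries, with bars for the 95% counting interval from steps, which does not cover variation between cultures. The intervals of Acta1 (0.286 to 0.402) and Des (0.429 to 0.604) lie below 1 and those of Actc1, Chrna1, Tnnt2 and Myl4 include 1.

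Of the 10 genes, 9 had a log2 ratio below 0 and 1 was at 0. The background was 43.2% of all entries with a ratio below 0, where 0 in both libraries gives a ratio of exactly 0, and 60.8% of the 11463 entries that reached 1 RPKM in either library. The direction of the lowest genes depended on scaling. After centring on the median of expressed entries 6 of the 10 had a ratio below 0, with Myod1, Myog, Myf5 and Myh3 above it, against 31.1% of all entries below 0, and after quantile normalization 8 did, with Myl4 at 0.01, against 38.9% of all entries. Acta1, Des, Actc1, Tnnt2 and Chrna1 stayed below 0 under every scaling tried. The median log2 ratio of the 10 genes was -0.08, against 0 over all entries and -0.06 over those that reached 1 RPKM in either library. A ratio at or below -1 was reached by 1 gene, Acta1, in a background of 0.334% of all entries, and a ratio at or above 1 by 0 of the 10, in a background of 0.977%.

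The actins raise the question of reads shared between near-identical transcripts. The coding sequence of Acta1 is 86.2% identical to that of Actc1 and 85.4% identical to that of Acta2, the smooth muscle actin, which was abundant here at 1769 RPKM in WT and 1768 RPKM in KO. Acta1 stood at 0.71% of the Acta2 value in WT and 0.241% in KO. The longest stretch that Acta1 shares with Actc1 or with Acta2 without a mismatch was 29 bases, and the longest it shares with Actb, the cytoplasmic beta-actin, was 77 bases. Of the 1397 windows of 50 bases in the Acta1 transcript, 28 also occur in Actb, 2.00% of them, and 0 occur in Acta2, Actc1 or the enteric smooth muscle actin Actg2. Actb had 3410.4 RPKM in WT and 3550.3 RPKM in KO. A share of windows is not a share of reads, since Actb was far more abundant than Acta1. The read length is not given, so the window of 50 bases was a choice. How the authors' counting treated reads with several matches is not stated, and the part of shared reads in the Acta1 value was not tested. No protein-coding entry of the files overlapped any of the 10 genes. The entries that did bear microRNA names. Mir5111 overlapped both Myog and Tnnt2, and Mir684-1 both Actc1 and Chrna1, so the listed spans of these entries are far longer than a microRNA. Mir3110 also overlapped Actc1, and Mir466b-3 also overlapped Chrna1.

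The promoters of the 10 genes were searched for the sites of factors known for muscle genes. Serum response factor, which drives actin and contractile genes in all muscle types and in cultured fibroblasts, binds the CArG box, and the myogenic factors bind the E-box, CANNTG. The RefSeq promoter windows of GRCm38.p6 run from 250 bases before a gene's start to 50 bases after it, and 9 of the 10 genes matched, with 10 windows because Tnnt2 has 2. Both strands were searched. An E-box stood in 8 of the 10 windows, as it did in 72.3% of the 32851 windows searched. A CArG box stood in 2 of the 10, those of Acta1 and Actc1, against 1.63% of all windows. The windows of Actc1, Des and Myog are shown, as those of an actin with a CArG box, of the filament gene whose value differed most after Acta1, and of a regulator near 0. Capitals mark E-boxes and CArG boxes, and a match is a description of the letters and not a bound site.

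Actc1, chr2:114052826-114053125, minus strand: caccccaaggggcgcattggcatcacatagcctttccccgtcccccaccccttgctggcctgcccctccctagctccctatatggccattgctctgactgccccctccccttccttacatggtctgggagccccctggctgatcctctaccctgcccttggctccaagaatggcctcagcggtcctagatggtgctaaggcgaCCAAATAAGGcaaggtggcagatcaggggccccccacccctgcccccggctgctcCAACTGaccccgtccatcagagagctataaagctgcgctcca

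Des, chr1:75360042-75360341, plus strand: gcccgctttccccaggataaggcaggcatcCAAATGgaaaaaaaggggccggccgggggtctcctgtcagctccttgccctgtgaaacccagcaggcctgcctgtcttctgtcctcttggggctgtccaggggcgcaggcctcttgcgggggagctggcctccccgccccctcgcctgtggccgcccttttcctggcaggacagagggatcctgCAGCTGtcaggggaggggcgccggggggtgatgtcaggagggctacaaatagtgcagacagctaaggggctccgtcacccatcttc

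Myog, chr1:134289754-134290053, plus strand: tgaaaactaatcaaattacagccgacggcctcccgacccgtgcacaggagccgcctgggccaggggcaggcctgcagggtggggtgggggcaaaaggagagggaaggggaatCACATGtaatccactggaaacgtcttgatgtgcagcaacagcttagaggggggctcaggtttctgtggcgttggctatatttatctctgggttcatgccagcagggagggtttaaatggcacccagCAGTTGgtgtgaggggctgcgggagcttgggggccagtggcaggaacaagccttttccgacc

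Positions were counted from the start site on which each window was built. For Myog this is the start of the entry given above, but for Acta1, Actc1 and Des it lies upstream of the entry. In the window of Acta1 the CArG box begins 73 bases before this site and the E-boxes begin 238 and 221 bases before it. In Actc1 the CArG box begins 47 bases before this site and the only E-box lies after it. Both Actc1 matches lie upstream of the entry itself. The Myog window holds E-boxes that begin 138 and 12 bases before the start and no CArG box. The Des window holds E-boxes that begin 220 and 36 bases before the start and no CArG box. Acta1 and Actc1, which both hold a CArG box, stood 30.5-fold apart in WT and 16.7-fold apart in KO by RPKM.

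The rest of the skeletal muscle programme was examined in 6 further lists of 72 genes. Of these 17 were listed at 0 in both libraries, 37 were above 0 and below 1 RPKM, and 18 reached 1 RPKM in either. A log2 ratio at or beyond 1 in either direction was reached by 0 of the 72. This count rested on the pseudocount: with 0.1 in place of 1, Eno3, Ldb3, Mef2c, Myh1, Myh2 and Myom1 were at or below -1 and Mylpf and Tnnt1 at or above 1, while Acta1 was still the only one of the 10 genes there. At that setting 2.31% of all entries were at or below -1 and 2.14% at or above 1. The values ran from -0.87 to 0.42, 31 were below 0 and 24 above, and the median was 0. Centring turned this split to 17 below and 55 above, since genes at or near 0 then take the sign of the shift of 0.06. Among the 18 genes that reached 1 RPKM, 12 had a ratio below 0 and 6 above, with a median of -0.14, in the background of 60.8% given above. Of the 47 genes above 0 in both libraries, 11 had a counting interval of the plain ratio below 1. A further 5 had one above 1, among them Pgam2, Jph1, Mef2d and Six4, and 31 had one that included 1. The background was 30.6% with an interval below 1 and 17.2% above 1, among 15327 entries above 0 in both libraries.

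The other regulators that reached 1 RPKM included factors with roles outside muscle. Mef2d and Mef2a, MADS-box factors found in many tissues, had 36.5 and 19.3 RPKM in WT and 39.5 and 18.0 RPKM in KO. Mef2c, which serves heart, vessels and skeletal muscle, had 2.99 RPKM in WT and 1.29 RPKM in KO, a plain ratio with a counting interval from 0.348 to 0.537. Eya1 had 2.24 RPKM in WT and 1.41 RPKM in KO, with an interval from 0.518 to 0.755. Six4 went the other way, with 2.21 RPKM in WT and 3.05 RPKM in KO and an interval from 1.21 to 1.58. Of the 12 regulators 6 reached 1 RPKM, 3 of them with a log2 ratio below 0 and 3 with one above 0. Another 3 were listed at 0 in both libraries.

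Genes of the myoblast surface and of fusion also held both some that reached 1 RPKM and some listed at 0. Itga7, a laminin receptor also made outside muscle, had 16.9 RPKM in WT and 14.3 RPKM in KO, and the neural cell adhesion molecule Ncam1 had 16.7 and 17.1 RPKM. Megf10, a receptor of muscle precursors and of glia, had 4.96 RPKM in WT and 4.27 RPKM in KO. Tmem8c and Gm7325, which encode the fusion proteins myomaker and myomixer, were listed at 0 in both, with limits of 0.064 and 0.0934 RPKM in WT. Cdh15, the muscle cadherin, had 0.093 RPKM in WT and 0.17 RPKM in KO, 8.30 and 14.3 steps.

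Most sarcomere genes had low values. Of 14 thick-filament genes 4 were listed at 0 in both libraries and 1, the M-band protein gene Myom1, reached 1 RPKM, with 2.44 RPKM in WT and 0.942 RPKM in KO and a counting interval of the plain ratio from 0.32 to 0.465. Mylpf, the fast regulatory light chain, had 0.157 RPKM in WT and 0.435 RPKM in KO, with an interval from 0.764 to 11.6. Myh1 and Myh2, both adult fast myosin heavy chains, had 0.383 and 0.379 RPKM in WT and 0.0657 and 0.0551 RPKM in KO. In steps these were 71.3 and 72.3 in WT and 11.5 and 9.94 in KO. The counting intervals of the plain ratio ran from 0.0883 to 0.332 for Myh1 and from 0.0677 to 0.286 for Myh2, although with 1 added to each value the log2 ratios were only -0.38 and -0.39. These genes are close paralogs and could share reads, so their values are not 2 independent observations. The other adult fast chain of the list, Myh4, the slow chain Myh7, the perinatal chain Myh8 and the fast essential light chain Myl1 were at 0 in WT and in KO.

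Of the 15 thin-filament and Z-disc genes 3 reached 1 RPKM. Ldb3, a Z-disc protein gene also used in heart, had 2.25 RPKM in WT and 0.879 RPKM in KO, with a counting interval of the plain ratio from 0.322 to 0.469. Tnnc1, the slow and cardiac troponin C, had 1.74 RPKM in WT and 1.64 RPKM in KO. Tnni1, the slow skeletal troponin I, had 1.37 and 0.856 RPKM. The intervals of Tnnc1, from 0.579 to 1.55, and Tnni1, from 0.373 to 1.005, included 1. At the neuromuscular junction Chrnb1, the beta subunit of the receptor to which Chrna1 belongs, had 2.44 RPKM in WT and 1.71 RPKM in KO, with an interval from 0.547 to 0.902. Lrp4, a receptor for the nerve-derived signal agrin, had 1.12 and 1.05 RPKM. The subunit genes Chrnd, Chrng and Chrne and the kinase gene Musk were listed at 0 in both, so the values of Chrna1 and Chrnb1 stood without the other subunits. Rapsn, which clusters the receptor, had 0.292 RPKM in WT and 0.127 RPKM in KO, with an interval from 0.135 to 1.16. Of the 16 genes of calcium release and energy supply 3 reached 1 RPKM. Eno3, the muscle enolase, had 7.05 RPKM in WT and 3.39 RPKM in KO, the lowest log2 ratio of the 72 genes at -0.87, with a counting interval of the plain ratio from 0.395 to 0.582. Pgam2, the muscle phosphoglycerate mutase, was higher in KO, at 3.35 against 2.25 RPKM, with an interval from 1.05 to 2.12. Jph1, which joins the membranes of calcium release, had 1.65 RPKM in KO and 1.36 RPKM in WT, with an interval from 1.00 to 1.47. Ckm, the muscle creatine kinase, had 0.0225 RPKM in WT, 0.998 steps, and was listed at 0 in KO.

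**Figure D3:**
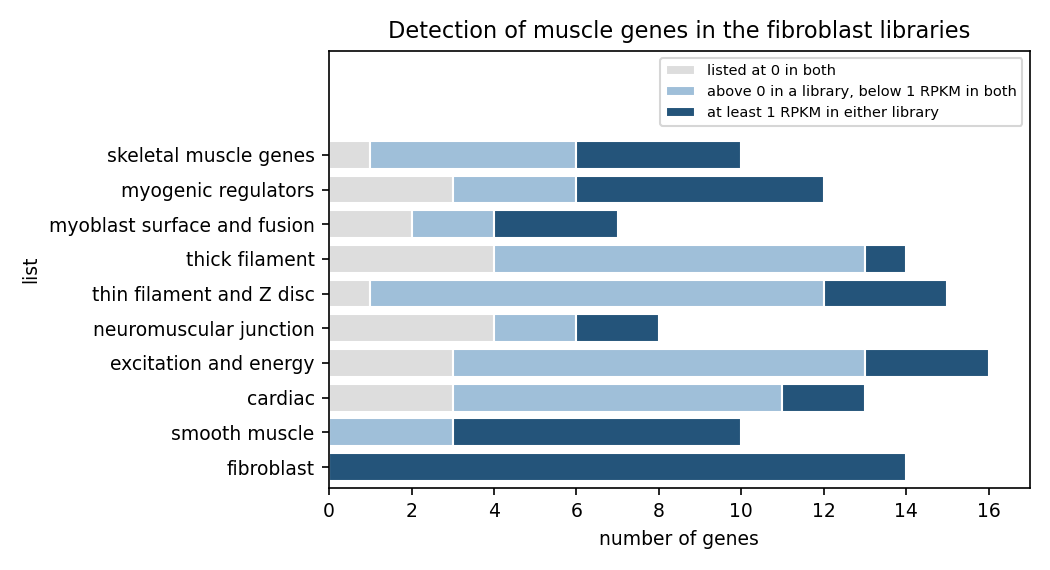
Number of genes of each list that were listed at 0 in both libraries (grey), above 0 in a library but below 1 RPKM in both (light blue), or at 1 RPKM or more in either library (dark blue). Of 14 thick-filament genes 1 reached 1 RPKM, against 7 of 10 smooth muscle genes and 14 of 14 fibroblast genes.

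Other muscle types were set beside these values because desmin is also made in heart and smooth muscle, and striated actins in the heart. Of 10 smooth muscle genes 7 reached 1 RPKM, and their summed level was 3909.5 RPKM in WT and 3951 RPKM in KO. The levels of Acta2 are given above, and Tagln, the smooth muscle protein transgelin, had 1318 RPKM in WT and 1446 RPKM in KO. Myl9, a regulatory light chain of smooth muscle and non-muscle cells, had 555 RPKM in WT and 507 RPKM in KO. Cnn1, the smooth muscle calponin, was lower in KO, with 83.1 RPKM in WT and 48.4 RPKM in KO and a log2 ratio of -0.77, close to the -0.79 of Des. The median log2 ratio of the list was -0.11. Of the 10, 8 were below 0, against 43.2% of all entries, or 6 after centring, against 31.1%. Of the 7 that reached 1 RPKM, 5 were below 0, against 60.8% of the entries at that level. Of 13 heart genes 2 reached 1 RPKM: Tbx5, a factor of heart and forelimb, had 4.49 RPKM in WT and 4.75 RPKM in KO, and Hand2, a factor of heart and limb, had 3.42 and 4.92 RPKM. Nppb, a natriuretic peptide gene of the heart, had 0.733 RPKM in WT and 0.365 RPKM in KO. The counting interval of its plain ratio ran from 0.177 to 1.14 and included 1. The heart factor Nkx2-5 and the heart myosin Myh6 were listed at 0 in both, and the summed level of the heart list was 9.01 RPKM in WT and 10.5 RPKM in KO.

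Markers of other cell types also differed between the libraries. All 14 fibroblast genes reached 1 RPKM, with a summed level of 6863 RPKM in WT and 6897 RPKM in KO, and 3 of the 14 had a log2 ratio at or above 1: Pdgfra (4.18 and 13.8 RPKM), Dcn (19.8 and 64.0 RPKM) and Lum (7.98 and 33.0 RPKM). The most abundant genes of the list went both ways, with Vim at 3151 RPKM in WT and 2448 RPKM in KO, Fn1 at 765 and 517 RPKM, and Col1a1 at 1477 and 1874 RPKM. All 4 macrophage markers were higher in KO, also under every scaling tried. Their summed level was 3.84 RPKM in WT and 9.48 RPKM in KO. Of these Cd68 (2.79 and 7.26 RPKM) had a log2 ratio above 1, Emr1 had 0.482 and 1.37 RPKM, and Csf1r had 0.521 and 0.775 RPKM. Ptprc, the lowest of the 4, had 0.0449 and 0.0813 RPKM. The counting interval of its plain ratio, from 0.659 to 5.44, included 1. The 4 endothelial markers summed to 1.12 RPKM in WT and 0.558 RPKM in KO, most of it Kdr, and the 4 epithelial ones to 1.05 and 0.677 RPKM, most of it Krt18, with Cdh1 listed at 0 in both. The 4 cartilage markers summed to 33.5 and 29.9 RPKM, most of it Col2a1 and Sox9, with Matn1 listed at 0 in both, and the 4 neural ones to 36.0 and 36.2 RPKM, nearly all of it Tubb3. The part of the cellular make-up of each culture in the values of Acta1 and Des was not tested. The summed level of the 10 skeletal muscle genes was 22.9 RPKM in WT and 10.8 RPKM in KO, and Acta1 and Des made up most of it.

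**Figure D4:**
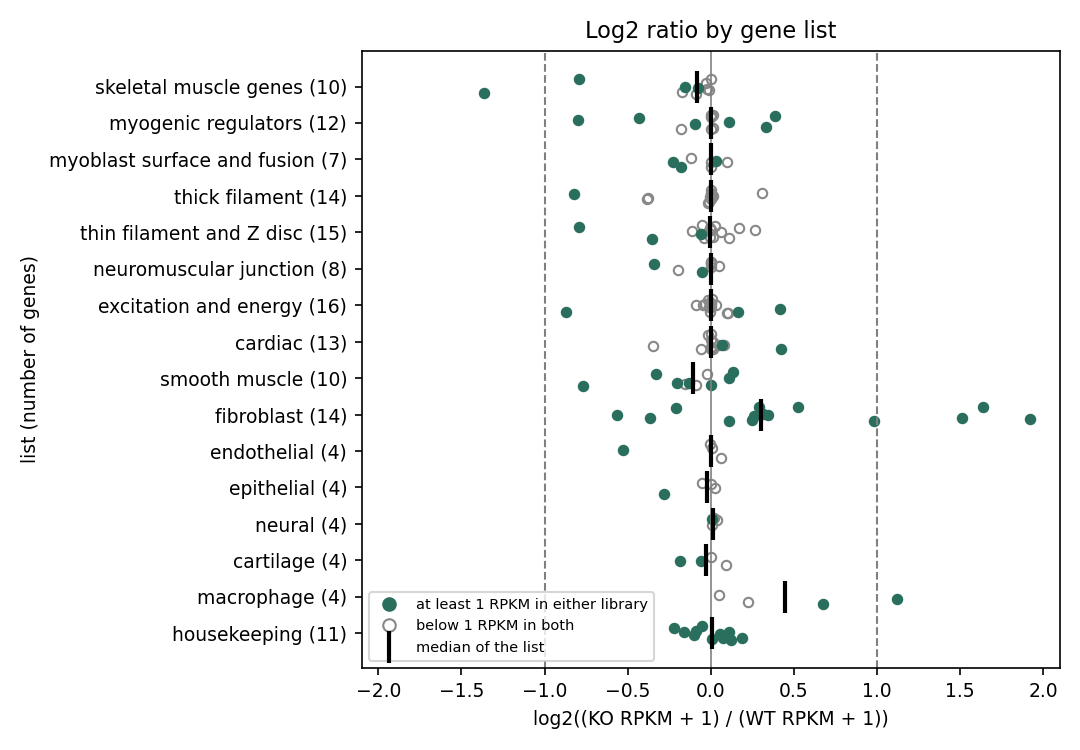
Log2 ratio of KO to WT, with 1 RPKM added to each value, for every gene of every list, with filled points for genes at 1 RPKM or more in either library, open points for the rest, black bars for list medians and dashed lines at -1 and 1. Acta1 is the only point at or below -1, and the points at or above 1 are Pdgfra, Dcn, Lum and Cd68.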

How the data were processed

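RNA of MEFs labelled WT and NEAT1 KO was sequenced as 1 poly-A library each by standard Illumina protocols. The authors computed and deposited RPKM values for 23329 RefSeq entries, with no normalization between libraries stated. The submitters' processing notes name CASAVA 1.8 and the builds mm10 and hg18. The mouse coordinates matched GRCm38 (mm10) with starts counted from 0, and were printed counted from 1. The aligner, the counter, the read length and the read totals are not given in the sources used here.

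From the RPKM values log2 ratios with a pseudocount of 1 were computed on every entry, and a ratio at or beyond 1 was counted. Exonic lengths came from GENCODE M21 transcripts matched by RefSeq accession, within the span of each entry. Steps were estimated from 8877 entries whose span lay within 10 bases of a single transcript. The exact binomial (Clopper-Pearson) interval of rounded steps gave the 95% counting intervals, and 3 steps the limit of a value of 0. Steps and intervals were chosen after the values had been seen. Promoter windows of RefSeq on chromosome 18 were left out of the search.

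The 10 genes and the lists were chosen with earlier results of these data known. The text names the 10 genes, Neat1, and from the lists the 3 genes with the highest RPKM and every gene at or beyond a ratio of 1, with markers of the scarcest cell types given as sums. Of the genes so chosen, 1 is not reported here. Mef2c, Eya1, Six4, Pax3, Pax7, Myf6, Cdh15, Tmem8c, Gm7325, Myh2, Myh4, Myh7, Myh8, Myl1, Tnnt1, Chrnd, Chrng, Chrne, Musk, Ckm, Nkx2-5, Myh6, Cnn1, Actg2, Cdh1, Matn1 and Ptprc were added after their values had been seen. Centring used the entries that reached 1 RPKM in both libraries. The ratios were tested on simulated data, with changes placed only in entries of higher level than most of the 10 genes. The steps, the counting intervals and the limits of 3 steps were not tested in this way. The human libraries were not used here. Python 3.11.15, numpy 2.4.6, pandas 2.3.3, scipy 1.17.1 and matplotlib 3.10.9 were used.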

Additional observations from a re-analysis of the deposited data

How the results depend on the processing

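No paired analysis was possible because each group holds 1 library. Values were recomputed with 0.1 as the pseudocount, without entries under 1 RPKM in both libraries, after centring on the median, after quantile normalization, at equal RPKM sums, and with 1 entry per symbol, which changed nothing since no symbol had more than 1 entry. A log2 value was taken as moved beyond 0.58 and a count beyond 1.5 times. Of 174 recomputed values 170 stayed within these bounds. This count includes values that could not move, such as all those with 1 entry per symbol and the ratios of single genes after the filter at 1 RPKM. Acta1 ran from -1.54 to -1.30 and Des from -0.95 to -0.73. With the pseudocount of 0.1, 540 entries were at or below -1 and 500 at or above 1, against 78 and 228. Without entries under 1 RPKM 4 of the 10 genes were left, all 4 lower in KO, and the thick-filament median was that of Myom1 alone, -0.83. Variation between cultures was not measured.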
